A study of Mus musculus with 66 samples.

Results

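The nuclear genes for the subunits of oxidative phosphorylation were followed in RNA from mouse BC57 bladder cancer cells and mouse normal urothelium (MNU). Members were the protein-coding genes whose symbols begin with Nduf, then a, b, c, s or v and a digit (complex I, without the assembly factors), Sdha to Sdhd (complex II), Uqcr (complex III), Cox4 to Cox8 (complex IV) or Atp5 (complex V), which gave 84 of the 39179 genes in the tables. Complex I held 37 of them, complex II 4, complex III 8, complex IV 18 and complex V 17. Each of the 84 had at least 1 count in some library. The rule used symbols only and no measured value, although it was chosen with earlier results of these data known.

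The respiratory chain passes electrons from NADH (complex I) or succinate (complex II) through complexes III and IV to oxygen, and the proton gradient this builds drives ATP synthase, complex V. Nuclear genes encode all of complex II and most subunits of the others, while a small set of core subunits is encoded by mitochondrial DNA. Several complex IV subunits exist as pairs of isoforms, one found in most tissues and the other known from muscle, lung or testis.

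BC57 cells were grown in DMEM with 10% fetal bovine serum, and the pellet was divided into a part fixed in formalin and embedded in paraffin (FFPE) and a frozen part (FF). Urothelium came from 9 mice and was divided in the same way, with 24 h in formalin. Neither strain, sex, age nor the way in which the 9 mice were combined is given in the sources used here, and BC57 is a single line. The Ovation SoLo kit was used on 50 pg, 250 pg or 2 ng of FFPE or FF RNA and the SMARTer Pico kit on 250 pg or 2 ng of either. TruSeq poly(A) libraries, made from 1 µg, exist for FF RNA only. Both low-input kits prime at random on total RNA and remove ribosomal sequence. This gave 66 libraries in 22 groups of 3 repeat libraries.

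Per the series' design text, 4 samples (BC57 and MNU, FFPE and FF) were each tested in triplicate. Repeat libraries were therefore taken to share an RNA sample, and every p-value below then measures spread between libraries, not between animals or cultures. Total counts ran from 928722 to 4706030 with Ovation, from 651879 to 7152648 with SMARTer and from 18499591 to 36187226 with poly(A). Levels are CPM (counts scaled to a common library size), set within each comparison, so the CPM of a group differs between comparisons. A member was called at an adjusted p under 0.05 from edgeR's quasi-likelihood test over all genes tested. In the poly(A) libraries 10 urothelial markers (uroplakins, keratins and their regulators) summed to 412 to 419 CPM in BC57 cells and 9851 to 10843 CPM in MNU. Another 7 fibroblast markers (collagens, Dcn, Lum, Pdgfra, Dpt) summed to 6.24 to 8.58 CPM in BC57 cells and 9256 to 10030 CPM in MNU, nearly the urothelial sum. Markers of endothelium (0.730 to 1.00 CPM in BC57 cells, 230 to 235 in MNU), leukocytes (23.2 to 23.4 in BC57 cells, 334 to 356 in MNU), adipocytes (5.19 to 5.46 in BC57 cells, 505 to 538 in MNU) and red cells (3.15 to 3.41 in BC57 cells, 40.03 to 45.2 in MNU) were also higher in MNU. Every marker tested in these lists was lower in BC57 cells. Those of skeletal and heart muscle summed to 24.4 to 26.8 CPM in BC57 cells and 7.16 to 8.54 CPM in MNU, with 2 of the 4 tested higher and 2 lower. The part of these other cells in the differences below was not tested. In such bulk RNA, fewer cells of a type and less RNA per cell cannot be told apart.

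Most subunit transcripts were higher in BC57 cells than in urothelium. In the poly(A) libraries 80 of the 84 members passed the filter on low counts. Of these, 63 were higher and 15 lower in BC57 cells, while 91.3% of the 17934 genes tested were called, 42.8% higher and 48.5% lower. The median log2 fold change was 0.54 over the members tested and -0.12 over all genes tested. These values rest on scaling within the 2 groups. A scale over all 66 libraries places some members otherwise, as given with the processing alternatives. BC57 and MNU libraries did not overlap for 77 of the 80. The same count was not made over all genes tested, so it does not set the members apart from other genes. The members took 1.17 to 1.20% of all counts in BC57 libraries and 0.787 to 0.804% in MNU libraries.

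**Figure D1:**
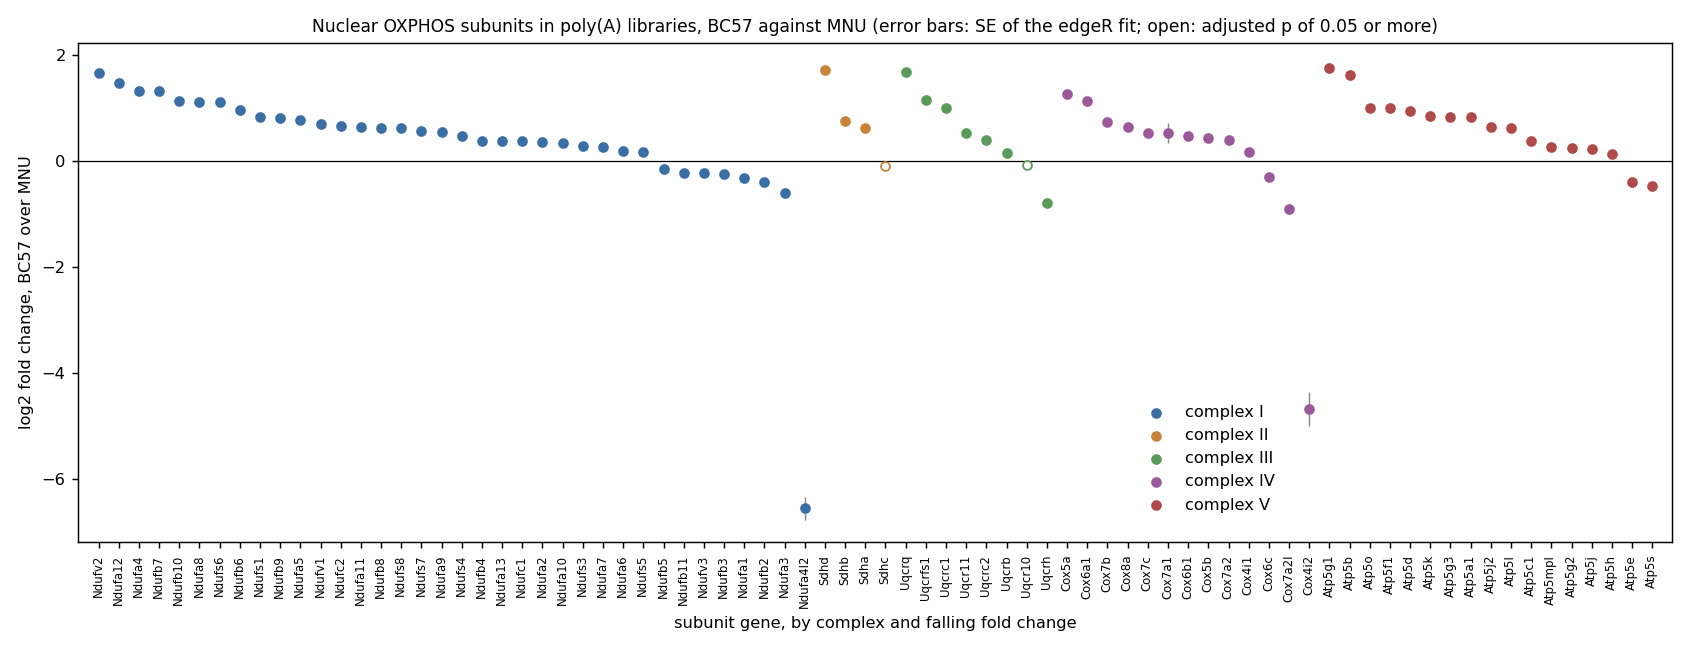
Log2 fold change (BC57 over MNU, poly(A) libraries, 3 each) of 78 subunit genes by complex, with error bars of 1 standard error. Points above 0 are higher in BC57 cells. Most points lie above 0 in every complex, and the lowest, Ndufa4l2, lies at -6.55. Cox6b2 had 0 counts in BC57 cells and is left out.

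Complex I takes electrons from NADH. All 37 members were tested, with 29 higher and 8 lower in BC57 cells. Ndufv2, an iron-sulfur subunit of the NADH-oxidising tip (chr17:66078638-66101559 in mm10, minus strand), had 172.7, 178.3 and 169.1 CPM in BC57 libraries and 55.14, 54.05 and 53.41 CPM in MNU libraries. The groups did not overlap, and the log2 fold change was 1.68 ± 0.04 (SE, n = 3 libraries a group; edgeR adjusted p = 2.1e-19). Ndufa12, an accessory subunit of the matrix arm, averaged 96.2 ± 2.47 CPM in BC57 cells and 34.2 ± 2.53 CPM in MNU (SD, n = 3 each). Ndufa4 was named for complex I, although its protein is now placed in complex IV. It averaged 255 ± 9.19 CPM in BC57 cells and 101 ± 1.42 CPM in MNU, a log2 fold change of 1.34.

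Core subunits of the peripheral arm, where NADH is oxidised, were among those that rose. Ndufs1, the largest iron-sulfur subunit, rose by a log2 fold change of 0.84, Ndufv1, which binds the flavin, by 0.70, Ndufs8 by 0.62, Ndufs7 by 0.57 and Ndufs3 by 0.29. The 8 that fell were accessory subunits, or in Ndufa4l2 a paralog of Ndufa4. Ndufa3 had 37.78, 36.13 and 38.35 CPM in BC57 libraries and 52.84, 55.67 and 61.03 CPM in MNU libraries (log2 fold change -0.60, adjusted p = 1.26e-09). Ndufb2 fell by 0.38 and Ndufa1 by 0.31 on the log2 scale.

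Ndufa4l2 is known as a gene induced by HIF and as a marker of pericytes and smooth muscle. It had 0.146, 0.1115 and 0.0582 CPM in BC57 libraries and 9.395, 10.77 and 10.22 CPM in MNU libraries, a level 93.7-fold lower in BC57 cells that rests on 9 counts against 798. Smooth muscle markers (8, including Myh11 and Acta2) summed to 11.2 to 13.5 CPM in BC57 cells and 243 to 261 CPM in MNU. All 8 were lower in BC57 cells, and their part in the Ndufa4l2 difference was not tested.

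Complex II, succinate dehydrogenase, links the citric acid cycle to the chain. Sdhd, a membrane anchor subunit (chr9:50596357-50603812, minus strand), had 290.2, 275.5 and 285.1 CPM in BC57 libraries and 87.56, 83.21 and 87.58 CPM in MNU libraries. Every BC57 library lay above every MNU library, and the log2 fold change was 1.72 ± 0.04 (SE; adjusted p = 8.86e-20). Its partner in the membrane, Sdhc, had 87.04, 81.45 and 90.88 CPM in BC57 libraries and 93.44, 86.98 and 96.24 CPM in MNU libraries. These groups overlapped and Sdhc did not pass (log2 fold change -0.09, adjusted p = 0.0881). The catalytic flavoprotein Sdha averaged 368 ± 2.34 CPM in BC57 cells and 236 ± 5.48 CPM in MNU, and the iron-sulfur subunit Sdhb 101 ± 1.53 CPM in BC57 cells and 59.3 ± 0.591 CPM in MNU, so both rose. The log2 fold changes of the 2 membrane anchors thus lay at 1.72 and -0.09, and those of the catalytic pair at 0.64 (Sdha) and 0.77 (Sdhb).

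Complex III passes electrons from ubiquinol to cytochrome c. Of its 8 members 6 rose, 1 fell and 1 did not pass. Uqcrq, a small subunit near the quinone site (chr11:53427922-53430831, minus strand), had 154.8, 145.8 and 158 CPM in BC57 libraries and 41.05, 52.44 and 48.4 CPM in MNU libraries. It rose by 1.69 ± 0.06 on the log2 scale (SE; adjusted p = 1.46e-16). The Rieske iron-sulfur protein Uqcrfs1 rose by 1.15 and the core protein Uqcrc1 by 1.01. Uqcrh, the hinge protein that contacts cytochrome c1 (chr4:116066965-116075071, minus strand), went the other way, with 97.7, 92.22 and 100.5 CPM in BC57 libraries and 173.1, 160.3 and 169.4 CPM in MNU libraries (log2 fold change -0.79, adjusted p = 2.55e-13). Uqcr10 had 120 ± 1.49 CPM in BC57 cells and 126 ± 5.60 CPM in MNU and did not pass (adjusted p = 0.137).

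Complex IV, cytochrome c oxidase, reduces oxygen. Of 18 members 14 were tested, with 10 higher and 4 lower in BC57 cells. Cox5a had 176.9, 174.5 and 169.6 CPM in BC57 libraries and 70.82, 70.71 and 73.11 CPM in MNU libraries, so the groups did not overlap, and its log2 fold change was 1.28. Cox6a1 rose by 1.15 and Cox7b by 0.74. Cox7a2l, also called SCAF1, joins complexes III and IV into supercomplexes (chr17:83501918-83517330, minus strand). It had 114.2, 108.7 and 117.5 CPM in BC57 libraries and 210.8, 211.6 and 216.9 CPM in MNU libraries. All BC57 libraries lay below all MNU libraries (log2 fold change -0.91 ± 0.04, SE; adjusted p = 4.38e-15). Cox6c was 102 ± 5.69 CPM in BC57 cells and 126 ± 4.65 CPM in MNU and fell by 0.30 on the log2 scale.

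Isoform pairs of complex IV showed the ubiquitous form at high level in both samples and the tissue-restricted form at no more than 2.161 CPM in any BC57 library. Cox6b1 averaged 183 ± 9.05 CPM in BC57 cells and 132 ± 3.03 CPM in MNU. Its testis isoform Cox6b2 had 0 counts in all BC57 libraries and 6.229, 6.271 and 6.577 CPM in MNU libraries (500 counts). With a floor of 3 counts over the BC57 group, Cox6b2 stood at least 183-fold lower in BC57 than in MNU libraries. Cox4i2, known from lung and smooth muscle, had 0.1168, 0.1673 and 0.0291 CPM in BC57 libraries and 2.655, 2.385 and 2.417 CPM in MNU libraries. That is 25.5-fold lower in BC57 cells, from 8 counts against 193. The 4 germ cell markers summed to 0.0582 to 0.175 CPM in BC57 cells and 0.245 to 0.654 CPM in MNU, near 0 in both.

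Its common counterpart Cox4i1 had 362.9, 349.2 and 367.2 CPM in BC57 libraries and 300.8, 318.6 and 329.6 CPM in MNU libraries. The call for Cox4i1 (log2 fold change 0.19, adjusted p = 0.000273) was lost in limma on the deposited log2 values, where it was 0.08 (adjusted p = 0.314). Cox7a2 averaged 94.4 ± 5.16 CPM in BC57 cells and 71.1 ± 3.63 CPM in MNU. The muscle form Cox7a1 stood far lower, at 2.161, 1.45 and 1.893 CPM in BC57 libraries and 1.225, 1.346 and 1.315 CPM in MNU libraries. It passed in edgeR (adjusted p = 0.0108) but not in DESeq2 (adjusted p = 0.0559). Cox8a was 240 ± 15.2 CPM in BC57 cells and 153 ± 10.8 CPM in MNU. The untested forms were Cox6a2 (18 counts in BC57 cells and 2 in MNU), Cox7b2 (3 and 0), Cox8b (0 and 6) and Cox8c (0 and 0).

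Complex V makes ATP. All 17 members were tested, with 15 higher and 2 lower in BC57 cells. Atp5b, the catalytic beta subunit (chr10:128083273-128090391, plus strand), had 2160, 2121 and 2183 CPM in BC57 libraries and 665.5, 709.4 and 719.6 CPM in MNU libraries. The difference was a 3.09-fold higher level in BC57 cells (log2 SE 0.04, adjusted p = 2.57e-19). Its partner in the catalytic ring, Atp5a1, averaged 1254 ± 17.5 CPM in BC57 cells and 699 ± 25.6 CPM in MNU. The epsilon subunit Atp5e fell by 0.39 on the log2 scale and the coupling factor gene Atp5s by 0.47.

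The c subunit of the rotor is made from 3 genes whose mature proteins are identical. Atp5g1 (chr11:96068852-96075670, minus strand) had 203, 190.7 and 209.6 CPM in BC57 libraries and 54.89, 61.98 and 60.48 CPM in MNU libraries, the largest rise of all members (log2 fold change 1.76 ± 0.05, SE; adjusted p = 1.43e-18). Atp5g3 averaged 268 ± 4.60 CPM in BC57 cells and 149 ± 2.13 CPM in MNU. Atp5g2 had 68.79, 65.23 and 67.67 CPM in BC57 libraries and 58.36, 50.9 and 60.02 CPM in MNU libraries. Its groups did not overlap, but its call (log2 fold change 0.26) was lost in limma (0.15, adjusted p = 0.108). Of the 100-base windows of the Atp5g2 transcript 86.4% also occur in another annotated transcript, so its counts depend on how such reads were assigned.

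Other annotated transcripts shared over 10% of such windows with 12 members, among them Atp5l (61.3%), Cox7c (44.4%), Ndufb4 (33.4%), Ndufa12 (17.7%) and Cox7a2l (11.7%). An exon of a gene on the other strand overlapped over 10% of the exon bases of 10 members, most of all Ndufb6 (39%), Atp5o (35.6%) and Ndufa13 (29.98%). Whether the counting used strand is not given in the sources used here.

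Promoters are shown for members at both ends of the range, because NRF1, GABP and YY1 are known regulators of these genes. Of the 84 members 66 matched a RefSeq promoter (GRCm38.p6, 250 bases before to 50 after the start). The motifs were searched on both strands and were picked after the fold changes were known. The NRF1 motif (GCGC, any base, then TGCGC) occurred in 17 of the 66 (25.8%) and in 5.19% of all 27025 genes with a promoter. A gene was counted if any of its promoters held the motif. The background was every gene with a promoter, not genes matched in expression or base composition. These shares therefore do not show a trait particular to the subunit genes. The ETS motif CCGGAAG (GABP) occurred in 16 (24.2%, against 9.93% of all), YY1 AANATGGCG in 10 (15.2%, against 2.76%) and the ERRA motif TCAAGGTCA in 2 (3.03%, against 0.466%). All 17 genes with the NRF1 motif were higher in BC57 cells in the poly(A) libraries (median log2 fold change 0.77), as were 35 of the 47 tested members without it (median 0.54). Of the 16 with the ETS motif 14 were higher and 2 lower (median 0.63), against 38 higher of 48 without it (median 0.55). Of the 10 with YY1 9 were higher and 1 lower (median 0.51), against 43 higher of 54 without it (median 0.62), and both with ERRA were higher. No test was made of these differences. Below are the 250 upstream bases, 5′ to 3′ on the minus strand of GRCm38.p6, of Sdhd (chr9:50603850-50604099), Cox6a1 (chr5:115348959-115349208), Atp5g1 (chr11:96075632-96075881) and Cox7a2l (chr17:83514334-83514583). Capitals mark NRF1 motifs and, as CTTCCGG, the reverse complement of the ETS motif. Sdhd and Cox6a1 hold both, while neither occurs in these bases of Atp5g1, which rose most, or of Cox7a2l, which fell. Uqcrq, Ndufv2 and Atp5b rose more than Cox6a1, are not shown and are not among the 17 with the NRF1 motif. The bases of Cox7a2l lie inside the gene span given above, before an internal start, so they do not cover its outermost annotated start.
Sdhd: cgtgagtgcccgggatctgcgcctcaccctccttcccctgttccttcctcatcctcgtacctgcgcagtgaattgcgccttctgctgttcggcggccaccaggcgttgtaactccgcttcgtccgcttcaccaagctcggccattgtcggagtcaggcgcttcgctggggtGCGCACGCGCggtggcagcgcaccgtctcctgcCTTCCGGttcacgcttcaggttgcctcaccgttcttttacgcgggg
Cox6a1: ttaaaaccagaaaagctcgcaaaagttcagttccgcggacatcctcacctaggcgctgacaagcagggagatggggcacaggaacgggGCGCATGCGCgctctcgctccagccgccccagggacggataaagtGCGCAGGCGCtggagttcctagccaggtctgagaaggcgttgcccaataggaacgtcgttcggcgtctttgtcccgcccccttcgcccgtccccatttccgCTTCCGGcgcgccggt
Atp5g1: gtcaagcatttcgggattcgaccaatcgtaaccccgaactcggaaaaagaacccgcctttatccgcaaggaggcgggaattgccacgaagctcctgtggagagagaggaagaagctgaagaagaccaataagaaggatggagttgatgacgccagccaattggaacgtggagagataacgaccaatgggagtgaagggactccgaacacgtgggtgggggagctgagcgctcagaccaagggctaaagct
Cox7a2l: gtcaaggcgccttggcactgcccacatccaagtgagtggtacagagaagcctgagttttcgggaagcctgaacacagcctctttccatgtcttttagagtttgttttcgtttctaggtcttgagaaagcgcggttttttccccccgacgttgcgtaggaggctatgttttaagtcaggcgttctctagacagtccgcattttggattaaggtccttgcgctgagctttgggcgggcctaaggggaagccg

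Genes that serve the same complexes were described from lists. The electron carrier cytochrome c (Cycs) averaged 204 ± 9.47 CPM in BC57 cells and 46.2 ± 1.95 CPM in MNU, and cytochrome c1 (Cyc1), a complex III core subunit that the symbol rule misses, 256 ± 4.46 CPM in BC57 cells and 78.2 ± 4.90 CPM in MNU. Both rose, as did the complex I acyl carrier protein Ndufab1 (log2 fold change 0.55). Of 47 assembly factors 30 rose and 15 fell, with a median log2 fold change of 0.50. Of all genes tested in these libraries 91.3% were called, 42.8% higher and 48.5% lower. Uqcc2, which acts on complex III, rose by 2.30, Cox10, which makes heme O for complex IV, by 2.24 and the complex I factor Ndufaf4 by 1.92. Cox20, a copper-insertion partner of COX2, fell by 1.67, the ATP synthase factor Atpaf1 by 1.53 and Coa4 by 1.30 on the log2 scale.

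Of 15 regulators 11 rose and 3 fell, beside the 91.3% of all genes called in these libraries (42.8% higher and 48.5% lower). Myc averaged 225 ± 1.52 CPM in BC57 cells and 26.1 ± 1.47 CPM in MNU. The PGC-1-related coactivator Pprc1 rose by 2.13 and Nrf1 by 1.31 on the log2 scale. Ppargc1a, which encodes the coactivator PGC-1alpha, averaged 0.279 ± 0.0877 CPM in BC57 cells and 12.4 ± 0.742 CPM in MNU and fell. Esrrg, an estrogen-related receptor, had 0 counts in BC57 cells and 1.98 ± 0.351 CPM in MNU. For scale, Gapdh rose by 2.79 and Actb by 2.12 on the log2 scale, more than any subunit gene did.

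The 13 protein genes of mitochondrial DNA went the other way in the poly(A) libraries, with 0 higher and 12 lower in BC57 cells (against 42.8% and 48.5% of all genes tested) and a median log2 fold change of -1.77. They summed to 7728 to 8447 CPM in BC57 libraries and 23558 to 25878 CPM in MNU libraries. The complex IV core subunit mt-Co1 averaged 2289 ± 107 CPM in BC57 cells and 10964 ± 442 CPM in MNU. These transcripts were spread unevenly: mt-Co2, mt-Co3, mt-Atp6, mt-Atp8, mt-Nd3 and mt-Nd4l averaged only 0.736 to 8.75 CPM in BC57 cells and 2.54 to 11.2 CPM in MNU, and the cause was not tested. In total-RNA libraries from 2 ng the split was less one-sided, with 3 of 13 higher and 8 lower in FF Ovation libraries, 5 higher and 4 lower in FFPE Ovation libraries, and 1 higher and 8 lower in FF SMARTer libraries. Their mean share of counts was higher in BC57 cells in FFPE Ovation libraries from 2 ng (7.09%, against 6.01% in MNU). It was lower in FF libraries from 2 ng, at 2.72% against 5.19% with Ovation and 0.524% against 1.41% with SMARTer. The nuclear subunits were mostly higher in BC57 cells in all these conditions.

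Levels of different genes were set beside each other per kilobase of exon, in CPM per kb scaled over all 66 libraries. In the poly(A) libraries of BC57 cells the median member stood at 43.98 CPM per kb in complex I, 57.9 in complex II, 77.3 in complex III, 62.6 in complex IV and 69.6 in complex V. In those of MNU it stood at 32.6 in complex I, 41.9 in complex II, 76.4 in complex III, 41.9 in complex IV and 49.4 in complex V. The medians of complex III differed by less than the spread on this scale. By the principal transcript's length they were 138 in BC57 cells and 107 in MNU, and per exon length in FF libraries from 2 ng they were 56 ± 7.29 in BC57 cells and 35.2 ± 3.96 in MNU with Ovation, and 71.7 ± 1.64 in BC57 cells and 43.2 ± 4.64 in MNU with SMARTer (SD, n = 3 each). The complex V median was 1.58 ± 0.04 times that of complex I in BC57 cells and 1.52 ± 0.12 times in MNU (SD, n = 3 each), a difference within the spread. In each of the 10 other conditions the mean ratio was also higher in BC57 cells, at 1.64 ± 0.10 in BC57 cells and 1.09 ± 0.04 in MNU in FF SMARTer libraries from 2 ng and at 2.14 ± 0.13 in BC57 cells and 1.68 ± 0.23 in MNU in FF Ovation libraries from 2 ng. The spreads overlapped in some of them. The ratio was 1.87 ± 0.23 in BC57 cells and 1.71 ± 0.20 in MNU in FFPE Ovation libraries from 50 pg. In FF Ovation libraries from 250 pg it was 2.11 ± 0.25 in BC57 cells and 1.71 ± 0.37 in MNU. In BC57 cells the most abundant members per kilobase were Atp5b (439), Atp5a1 (345), Cox8a (335), Cox6a1 (238) and Cox6b1 (223). In MNU they were Cox8a (243), Atp5a1 (218), Uqcr10 (211), Cox4i1 (200) and Cox6b1 (182). Exon length here covers all annotated transcripts, and dividing by the principal transcript alone gave other values, listed with the processing alternatives.

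**Figure D2:**
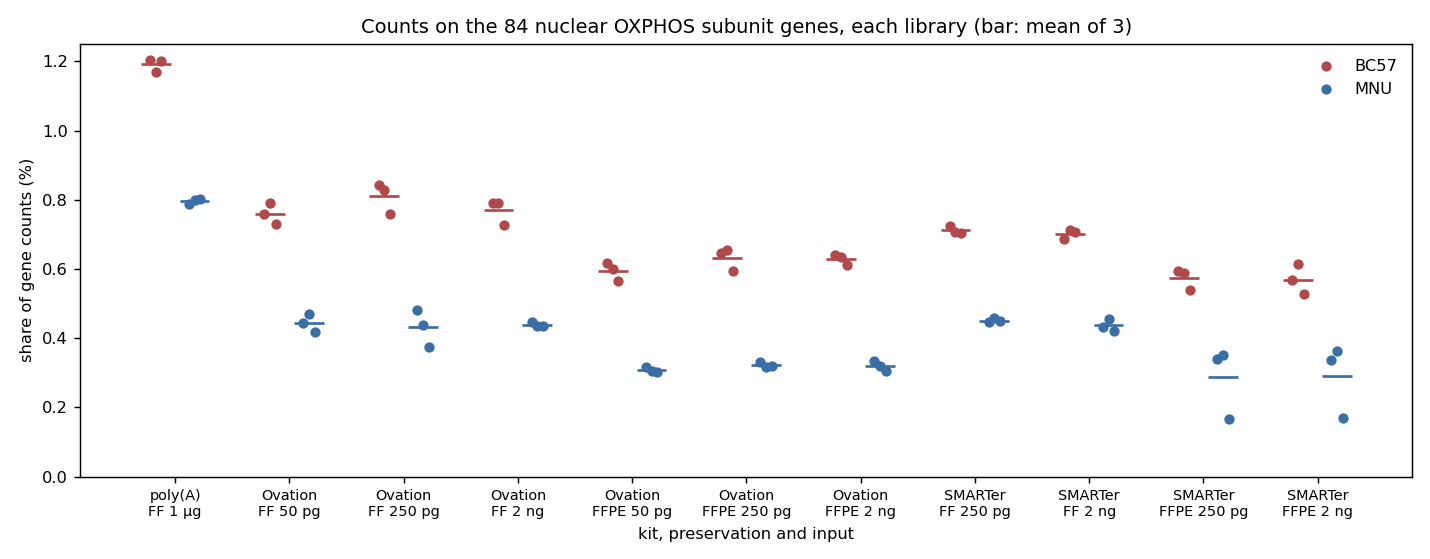
Share of all counts in each library (percent) that fell on the 84 subunit genes, by kit, preservation and input, for BC57 and MNU. Each point is a library. BC57 libraries lie above MNU libraries in every condition, and MNU SMARTer FFPE libraries numbered 3 lie lowest, at 0.168% from 250 pg and 0.169% from 2 ng.

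The comparison was repeated in the 10 other conditions, which come from the same cell pellet and the same mice and so are no new biological replicates. FFPE RNA was extracted from the fixed part, apart from the FF RNA. Counts of called members are given with the share of all genes called in the same libraries. In FF Ovation libraries from 50 pg 24 members rose and 3 fell, with 45.2% of all genes called (20.2% higher and 25% lower). From 250 pg 26 rose and 1 fell, with 48% of all genes called (21.6% higher and 26.4% lower), and from 2 ng 56 rose and 6 fell, with 79.1% called (37.6% higher and 41.4% lower). In FFPE Ovation libraries from 50 pg 27 rose and 1 fell, with 33.5% called (14.7% higher and 18.8% lower). From 250 pg 43 rose and 3 fell, with 52.2% called (24% higher and 28.2% lower), and from 2 ng 65 rose and 4 fell, with 77% called (36.7% higher and 40.3% lower). In FF SMARTer libraries from 250 pg 28 rose and 4 fell, with 51.4% called (23.9% higher and 27.5% lower), and from 2 ng 58 rose and 7 fell, with 77.5% called (36.3% higher and 41.2% lower). All genes thus split nearly evenly between the directions, with slightly more lower, while called members were mostly higher. The FF 250 pg Ovation call rested in part on the third MNU library: without it 44 rose and 3 fell. The share of all genes called without that library is not given here.

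In FFPE SMARTer libraries 3 members rose and 0 fell from 250 pg, with 9.38% of all genes called (3.80% higher and 5.58% lower), and 23 rose and 1 fell from 2 ng, with 30% called (13.7% higher and 16.3% lower). The MNU libraries numbered 3 in these sets stood apart. Members took 0.168% and 0.169% of their counts, against 0.336 to 0.364% in libraries 1 and 2, and their total counts were 651879 (250 pg) and 780106 (2 ng). The heart gene Myh6 reached 49.4 CPM in the 2 ng library 3 and 0 in libraries 1 and 2, and the part of this library's makeup in the counts was not tested. Without the libraries numbered 3, 11 members rose and 1 fell from 250 pg, and 54 rose and 3 fell from 2 ng. With the replicate number as a block, 27 rose and 1 fell from 2 ng. In that set the numbers were taken to pair the libraries from correlations in these same data, not from labels. Leaving out any other library gave 0 calls from 250 pg, and from 2 ng it gave 3 without BC57 library 1 or 2, 7 without MNU library 1 and 8 without MNU library 2. The shares of all genes above belong to the full sets, and none is given with libraries left out or with the block. Such counts therefore do not set the members apart from other genes.

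Across all 11 conditions the median log2 fold change of members tested lay between 0.37 and 1.01. Of the 75 members tested in every condition, 51 were positive in all 11 and 3 negative in all 11 (Ndufb2, Uqcrh and Cox7a2l). Called higher in all 11 were Ndufb10, an accessory subunit of the membrane arm (log2 fold change 0.96 to 2.24), Uqcrq (1.02 to 2.71) and Atp5b (1.33 to 2.34), and 10 more members were called higher in 10 conditions. Cox7a2l was called lower in 8 conditions (-1.06 to -0.56), while Ndufb2 (-1.66 to -0.38) and Uqcrh (-0.79 to -0.02) were each called lower in 6. Cox6c and Atp5e were called in both directions: each was lower in BC57 cells in poly(A) libraries and higher in FFPE Ovation libraries from 2 ng (log2 fold change 0.39, adjusted p = 0.0023 for Cox6c; 0.37, adjusted p = 0.046 for Atp5e). Sdhc was called in no condition (-0.43 to 0.44).

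**Figure D3:**
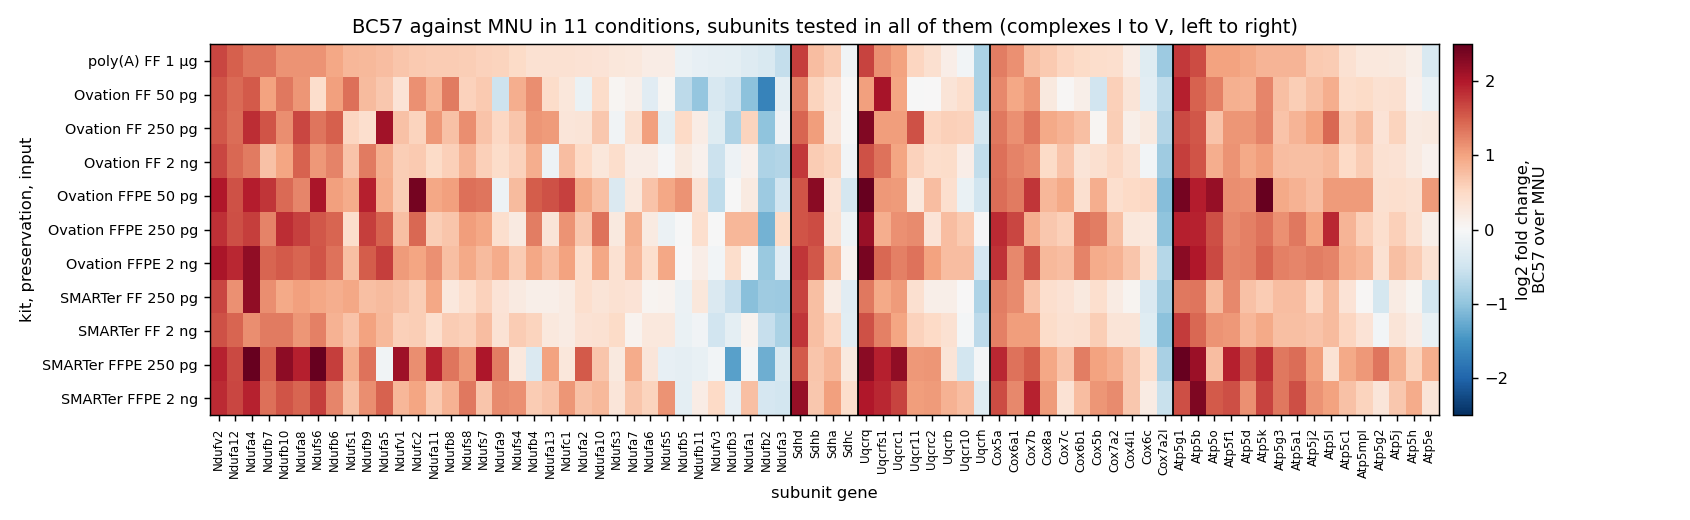
Log2 fold change (BC57 over MNU) of 74 of the 75 subunit genes tested in all 11 conditions, as a colour map with genes in columns grouped by complex and conditions in rows, clipped at 2.5 in either direction. Most columns keep 1 colour down the map, 50 of those plotted being positive and 3 negative in all 11 rows.

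The difference was also present in fixed RNA. In FFPE Ovation libraries from 2 ng, Uqcrq had 129.4, 132.5 and 104.5 CPM in BC57 libraries and 27.86, 18.36 and 24.11 CPM in MNU libraries (log2 fold change 2.37). Atp5b had 720.6, 692.5 and 679.9 CPM in BC57 libraries and 174, 178.4 and 167.8 CPM in MNU libraries (2.01). For both genes every BC57 library lay above every MNU library by a wide margin. On a single scale over all 66 libraries, the ATP synthase subunit Atp5a1 had 505 ± 20.7 CPM in BC57 and 208 ± 20.6 CPM in MNU FFPE Ovation libraries from 2 ng, and 704 ± 14.8 CPM in BC57 and 404 ± 13.9 CPM in MNU FF libraries. Sdhb had 56.3 ± 6.98 CPM in BC57 and 18.4 ± 3.95 CPM in MNU FFPE libraries, and 56.1 ± 8.25 CPM in BC57 and 34.8 ± 4.17 CPM in MNU FF libraries. Uqcrc2 had 96.5 ± 5.06 CPM in BC57 and 45.9 ± 5.29 CPM in MNU FFPE libraries, and 117 ± 5.34 CPM in BC57 and 84.2 ± 3.03 CPM in MNU FF libraries. Ndufb8 of complex I had 38.5 ± 1.70 CPM in BC57 and 21.8 ± 6.95 CPM in MNU FFPE libraries, and 53.3 ± 7.17 CPM in BC57 and 34.02 ± 7.43 CPM in MNU FF libraries. For these 4 the ratio of BC57 to MNU was above 1 in either preservation. Cox4i1 on this scale was within the spread with poly(A), at 311 ± 12.1 CPM in BC57 cells and 310 ± 14.6 CPM in MNU, and had 180 ± 8.93 CPM in BC57 and 107 ± 4.93 CPM in MNU FFPE Ovation libraries.

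Formalin fixation was examined within each sample and kit at 2 ng, FFPE against FF. FFPE and FF RNA came from separate parts of each sample and separate extractions. Fixation therefore cannot be told apart from differences between these parts or extractions. In BC57 cells with Ovation, 14 of 76 members rose and 19 fell (32.3% of all genes called, 16.6% higher and 15.6% lower; median log2 fold change 0.04), but limma on the deposited log2 values, in which both the scaling (to the upper quartile) and the test differ, called 35 higher and 6 lower. Limma also shifted the median of all genes upward in this set, as given with the processing alternatives. The shares of all genes in this paragraph are those of the main edgeR test. None is given for limma, a block or sets with a library left out, so those counts do not set the members apart. With RLE size factors in edgeR 14 rose and 19 fell. In MNU with Ovation 4 of 77 rose and 34 fell (37.3% of all genes called, 19.3% higher and 17.9% lower; median -0.35), and limma called 6 higher and 19 lower. In BC57 cells with SMARTer 0 of 76 rose and 18 fell (17.8% of all genes called, 9.25% higher and 8.57% lower). The replicate block, with the numbers taken to pair the libraries, gave 1 higher and 23 lower, and limma called none. Leaving out FF library 1, 2 or 3 of that set left 7, 6 or 9 that fell. In MNU with SMARTer 0 of 78 rose and 2 fell (1.87% of all genes called, 1.32% higher and 0.551% lower), with 27 that fell without the FFPE library numbered 3 and none without any other.

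The small subunit Cox8a of complex IV was higher after fixation with Ovation in both samples. In BC57 cells it had 197.9, 194.1 and 198.7 CPM in FFPE libraries and 110.5, 96.91 and 85.51 CPM in FF libraries (log2 fold change 1.01, adjusted p = 3.5e-11). In MNU it had 126.3, 119.4 and 98.07 CPM in FFPE libraries and 70.01, 69.96 and 70.9 CPM in FF libraries (0.70). Atp5g2, with its shared sequence, also rose in both (1.01 in BC57 cells and 1.04 in MNU).

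Atp5b was lower in FFPE than in FF libraries of both samples. It had 735.7, 708.5 and 694.4 CPM in FFPE and 1149, 1126 and 1156 CPM in FF libraries of BC57 cells (log2 fold change -0.68, adjusted p = 4.4e-12). In MNU it had 182.3, 186.3 and 172.9 CPM in FFPE and 398.9, 361.1 and 402.2 CPM in FF libraries (-1.10, adjusted p = 2.6e-19). Ndufa10, an accessory subunit of complex I, had 26.81, 27.01 and 27.46 CPM in FFPE and 69.47, 51.95 and 75.28 CPM in FF libraries of MNU (-1.28), and fell by 0.60 on the log2 scale in BC57 cells. The stalk subunit Atp5o had 25.12, 27.8 and 34.65 CPM in FFPE and 63.5, 64.3 and 63.9 CPM in FF libraries of MNU (-1.13). All 8 complex III members fell in MNU with Ovation, 6 of them in DESeq2 and 4 in limma. With SMARTer, the complex III core protein Uqcrc1 had 29.8, 35.04 and 36.45 CPM in FFPE and 79.76, 83.27 and 89.21 CPM in FF libraries of MNU (-1.33, adjusted p = 0.032). This call was lost in limma on the deposited log2 values (adjusted p = 0.0596) and with the replicate block (adjusted p = 0.0661).

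The length of a member was set beside its change with fixation. Across members, Spearman's rho between exon length and the log2 fold change was -0.37 in BC57 and -0.28 in MNU with Ovation, and -0.20 in BC57 and -0.02 in MNU with SMARTer. With the principal transcript's length it was -0.38 in BC57 and -0.24 in MNU with Ovation, and -0.36 in BC57 and -0.24 in MNU with SMARTer. Over all coding genes tested, by exon length, it was positive, at 0.21, 0.26, 0.31 and 0.24 in the same order. These genes share libraries and are not independent, so no p is given.

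Whether the FFPE-to-FF change of a member differed between the 2 samples was tested as an interaction in the Ovation libraries from 2 ng. Here too, fixation cannot be told apart from differences between the parts or extractions. For 10 of 77 members the log2 change was higher in BC57 cells than in MNU and for 0 it was lower (5.90% of all genes were called, 4.26% higher and 1.64% lower; median over members 0.32, over all genes 0.06). They were the complex V subunits Atp5a1, Atp5b, Atp5c1 and Atp5o, the complex III subunits Uqcrc2 and Uqcrq, and Ndufa4, Ndufa10, Sdhb and Cox6b1. The largest difference, 0.87 ± 0.20 (SE; adjusted p = 0.00289), was that of Cox6b1. Without the second MNU FFPE library 6 were called.

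**Figure D4:**
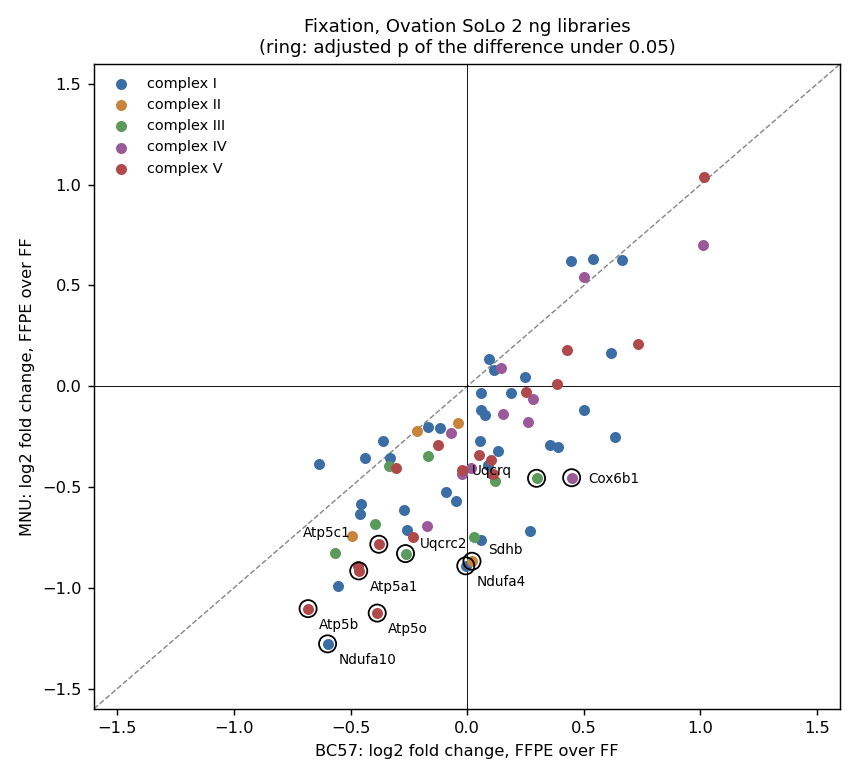
Log2 fold change with fixation (FFPE over FF, Ovation, 2 ng) in BC57 cells against that in MNU, for 76 subunit genes, coloured by complex. Ringed points are the 10 genes whose change differed between the samples, and all of them lie on the side of a higher value in BC57 cells.

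The low-input kits were set against the poly(A) libraries on FF RNA of the same sample. Kit, input and any sequencing run or batch cannot be told apart here, as the libraries of each kit carry an ID series of their own. Nor can kit and run be told apart between Ovation and SMARTer. Both kits are compared with the same poly(A) libraries. With all libraries thinned to the smallest total 62 members were called in BC57 cells and 59 in MNU with Ovation, and 59 in BC57 cells and 58 in MNU with SMARTer, close to the counts at full depth. With Ovation 9 of 77 members were higher and 57 lower in BC57 cells (59.9% of all genes called, 30.3% higher and 29.6% lower; median log2 fold change -0.47), and 2 of 80 higher and 63 lower in MNU (56.7% called, 28.1% higher and 28.6% lower; median -0.66). With SMARTer 19 of 77 were higher and 42 lower in BC57 cells (57.5% called, 29.5% higher and 27.9% lower; median -0.27), and 16 of 80 higher and 46 lower in MNU (57.7% called, 29% higher and 28.7% lower; median -0.33). Over all genes the medians lay between -0.03 and -0.01.

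Complex I was split with SMARTer, with 13 members higher and 15 lower in BC57 cells and 11 higher and 15 lower in MNU. Ndufb4, Ndufs4, Ndufa5 and Ndufv3 were higher than with poly(A) in both samples, by 1.21, 1.01, 0.87 and 0.71 on the log2 scale in BC57 cells and by 0.93, 0.72, 0.72 and 0.85 in MNU. With Ovation, Ndufb4 was higher in BC57 cells (0.75), Ndufs4, Ndufa5 and Ndufv3 were each lower in at least 1 sample (-0.94 to -0.31 where called), and Ndufc2 was higher in both samples (0.58 in BC57 cells and 0.43 in MNU). Ndufa4 stood lowest against poly(A), with 51.7, 45.76 and 37.37 CPM in SMARTer and 205.3, 192.5 and 204.8 CPM in poly(A) libraries of BC57 cells (log2 fold change -2.16). In MNU it had 26.13, 19.49 and 14.47 CPM in SMARTer and 88.98, 86.29 and 87.01 CPM in poly(A) libraries (-2.10). With Ovation, Ndufa13 had 18.37, 25.13 and 16.13 CPM against 84.73, 78.53 and 87.31 CPM in poly(A) libraries of BC57 cells (-2.08). Atp5e was lower in all 4 comparisons, by -1.41 and -2.07 with Ovation and -1.31 and -1.62 with SMARTer, in BC57 cells and MNU in turn. Atp5g2 was lower as well (-1.52, -1.80, -1.79 and -1.58 in the same order).

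**Figure D5:**
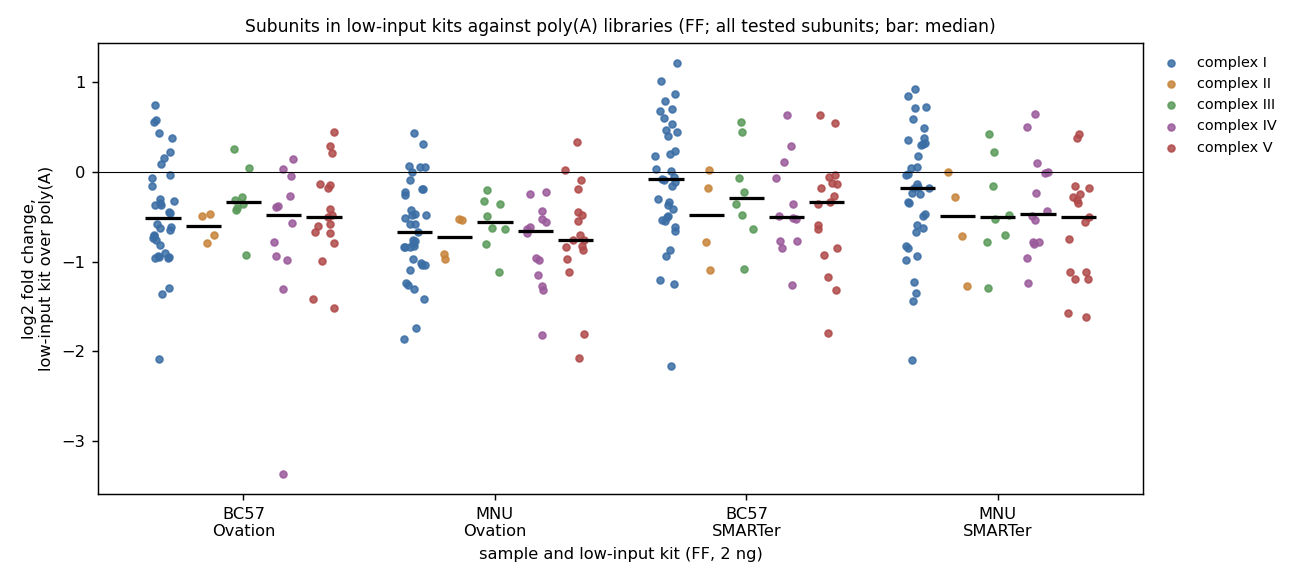
Log2 fold change of each tested subunit gene in the low-input kit over poly(A) libraries, for Ovation and SMARTer in BC57 cells and MNU (FF RNA, 2 ng against 1 µg). Each point is a gene (77, 80, 77 and 80 genes), and bars mark the medians, all below 0.

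Lowering the Ovation input from 2 ng to 50 pg gave no called member in any of the 4 sets by edgeR or DESeq2. At an unadjusted edgeR p under 0.05 there were 6 of 76 in BC57 FF, 2 of 77 in MNU FF, 3 of 77 in BC57 FFPE and 4 of 78 in MNU FFPE libraries, and limma on the deposited log2 values called 0, 0, 12 and 2. Of all genes edgeR called 0.0266% (all higher), 0.0%, 0.0% and 0.0216% (0.0144% higher and 0.00719% lower) in the same order. The share of all genes that limma called is not given here. The spread between repeat libraries was larger from 50 pg, so a member that missed the threshold is not shown to be equal. Total counts differed too, at 928722, 3793116 and 1379992 in BC57 FF libraries from 50 pg. From 2 ng they were 2300831, 2169163 and 2266014, and the part of depth in the spread was not tested. The median coefficient of variation over the 76 members of at least 5 CPM was 23.5% from 50 pg and 10.7% from 2 ng in BC57 FF Ovation libraries, and 27.1% and 9.23% in MNU. It was 4.08% in BC57 and 4.23% in MNU poly(A) libraries, and reached 72.2% in MNU FFPE SMARTer libraries from 250 pg, where a library stood apart.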

How the data were processed

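RNA-seq was made from BC57 cells and MNU as 66 libraries in 22 groups of 3, with 100-base paired reads per the labels. The authors deposited raw counts per gene and a log2 table. Reads were aligned to mm10 with STAR, and SAMtools and featureCounts were used, per the submitters' processing notes. No version, annotation or strand setting is named in these notes. The deposited log2 values equal log2 of the count times 1000 over the upper quartile of the library's nonzero counts, plus 1. Of 39179 gene IDs 37693 matched GENCODE release 21, and the unmatched 1486 held at most 2.47% of any library. The symbol rule also met 10 genes that are not protein-coding, which were left out. Members, lists and named genes were chosen with earlier results of these data known.

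Counts were tested with edgeR 4.0.16 (R 4.3.3: filterByExpr, TMM, glmQLFit and glmQLFTest) on the 2 groups compared, or the 4 of the interaction, with Benjamini-Hochberg adjustment over all genes. Named were isoform families, a fixed member per complex, up to 3 called members per direction and complex in poly(A) (over the module elsewhere) at 20 CPM or more in the higher of the groups, and the 5 highest per kilobase. Others named, such as the complex I core subunits, were picked after their values were seen. Alternatives were RLE size factors, DESeq2 1.42.0, no filter, limma 3.58.1 on the deposited log2 values (not between kits), a replicate block, kits thinned to the smallest total, each library left out, and no SMARTer FFPE libraries numbered 3. The scripts were tested on simulated data. Numbers were taken to pair libraries where the deviations of all 3 same-numbered pairs correlated above 0.1, which held only between BC57 and MNU SMARTer FFPE at 2 ng (r = 0.251, 0.243 and 0.353 for libraries 1, 2 and 3) and between FFPE and FF SMARTer at 2 ng in BC57 (0.220, 0.160 and 0.282). The labels say nothing on pairing. The 3 deviations from a group mean are not independent, so these correlations do not show that libraries were paired. No repeat libraries were identical. CPM per kb used TMM over all 66 libraries and the union of GENCODE exons. Promoters came from RefSeq. Counts over the members include 1 gene that is not reported here by name or plotted with a label.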

Additional observations from a re-analysis of the deposited data

Results flagged for a closer look

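In Ovation libraries from 2 ng the log2 change with fixation (FFPE minus FF) was higher in BC57 cells than in MNU for 10 subunit genes by a test of the difference itself, the edgeR interaction term. In complex V the difference was 0.42 for Atp5a1 (adjusted p = 0.00277), 0.39 for Atp5b, 0.38 for Atp5c1 and 0.71 for Atp5o. In complex III it was 0.54 for Uqcrc2 and 0.72 for Uqcrq. It was 0.86 for Ndufa4, 0.65 for Ndufa10, 0.86 for Sdhb and 0.87 for Cox6b1. Atp5a1, Atp5b, Atp5o, Cox6b1 and Ndufa4 passed in all 17 alternatives run, with adjusted p-values of 9.68e-05 to 0.0254. Sdhb passed in 16 of 17, Uqcrc2 in 13, Uqcrq in 11, Ndufa10 in 10 and Atp5c1 in 7. All 10 differences were positive in all 17 alternatives. The share of counts on mitochondrially encoded genes also moved with fixation in these libraries: it averaged 7.09% in BC57 FFPE and 2.72% in BC57 FF libraries, and 6.01% in MNU FFPE and 5.19% in MNU FF libraries. Its part in the 10 differences was not tested. Fixation cannot be told apart here from differences between the fixed and frozen parts or their extractions.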

How the results depend on the processing

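Of the alternative values for the main results 233 stayed within 1.5 times the main count or within the spread, 60 moved and 1 reversed, and of those for named genes that left out no library 1169 kept direction and call, 39 lost it, 21 gained it and 1 reversed. The setting that moved most was limma on the upper-quartile log2 values, which changes scaling and test together, while RLE size factors alone lost 0 to 3 calls per comparison and turned the sign of no called member. On the scale over all 66 libraries, some members called higher with poly(A) stood no higher in BC57 cells. In CPM per kb Uqcrb averaged 103 ± 4.7 in BC57 cells and 105 ± 8.7 in MNU, and Atp5h 92.6 ± 4.0 and 95.1 ± 3.3. Ndufs5 averaged 36.9 ± 3.9 and 37.2 ± 0.8 (SD, n = 3 each). No test was made on that scale. Limma shifted the median of all genes by over 0.1 in most comparisons (0.27 against 0.00 for BC57 Ovation fixation). It called 41 members there, mostly higher, a reversed balance, and put Uqcrc2 at 0.000124 there, a reversed sign with no call. It called 17 between BC57 and MNU in FF Ovation from 250 pg, 42 in FF SMARTer from 2 ng and 5 in FFPE SMARTer from 250 pg. For fixation it called 25 in MNU Ovation, 0 in BC57 SMARTer and 0 in MNU SMARTer, and for input 12 in BC57 FFPE and 2 in MNU FFPE. DESeq2 called 12 in FFPE SMARTer from 250 pg, 13 for fixation in MNU SMARTer and 6 in the interaction. Without the filter these were 8 in FFPE SMARTer from 250 pg and 1 for fixation in MNU SMARTer. Without the SMARTer FFPE libraries numbered 3, 12 were called from 250 pg, 57 from 2 ng and 27 for fixation in MNU. The replicate block left 1 in FFPE SMARTer from 250 pg and 0 for fixation in MNU SMARTer. In these sets the numbers were not taken to pair the libraries, as not every correlation of same-numbered libraries passed 0.1. In both sets each library correlated best with its own number, a hint from the data. Between BC57 and MNU SMARTer FFPE from 2 ng, where the numbers were taken to pair, the block gave 28, and for fixation in BC57 SMARTer 24. The cause of these shifts was not tested. For the alternatives and for sets with a library left out, the share of all genes called is not set beside the counts. Such counts therefore do not set the members apart from other genes.

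Leaving out each library gave 76 to 79 calls with poly(A), 23 to 27, 18 to 47 and 59 to 64 in FF Ovation (50 pg, 250 pg, 2 ng), 20 to 23, 39 to 46 and 66 to 68 in FFPE Ovation, 28 to 36 and 61 to 67 in FF SMARTer and 0 to 12 and 3 to 50 in FFPE SMARTer (250 pg, 2 ng). For fixation it gave 27 to 34 (BC57 Ovation), 26 to 38 (MNU Ovation), 6 to 19 (BC57 SMARTer) and 0 to 27 (MNU SMARTer), for kits 64 to 68, 61 to 66, 56 to 61 and 59 to 64, for inputs 0, and 6 to 13 for the interaction. Median CPM per kb for complexes I to V in poly(A) libraries scaled by total count was 48.5, 63.9, 85.3, 69.0 and 76.9 in BC57 cells and 34.9, 44.9, 81.9, 44.9 and 52.9 in MNU. With the principal transcript's length, chosen after seeing the data, it was 70.2, 92.9, 138, 114 and 176 in BC57 cells and 53.8, 59.6, 107, 101 and 122 in MNU. Depth limits the isoforms under 10 CPM and the SMARTer FFPE sets, where a member that missed the threshold is not shown to be equal.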
